A study of Mus musculus with 2 samples.

Results

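The IL-6 family ligands and receptors described here are 10 genes chosen by name from the 33696 genes listed for each library. They are 5 ligands (Il6, Il11, Lif, Osm and Clcf1) and 5 receptor chains (Il6ra, Il11ra1, Il6st, Lifr and Osmr), and all 10 were present in both libraries. The cells came from neonatal ICR mice whose hindlimb digits 2 and 4 were amputated through the middle phalanx (P2) on postnatal day 3. On postnatal day 7 the wounds received a microcarrier bead soaked in FGF8 (500 ng/µl) or in 0.1% BSA, the carrier protein that served as control. Tissue distal to the bone stump was taken 24 h later without its epithelium, and cells from 20 digits of 5 mice, females and males together, were pooled into a single droplet-based library per treatment. By the study's account the FGF8 pool probably held digits that would not have regenerated.

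Cytokines of the IL-6 family signal through receptor complexes that share the chain gp130, the product of Il6st. IL-6 and IL-11 first bind a chain without signalling activity of its own (Il6ra, Il11ra1) and then recruit gp130, whereas LIF and oncostatin M act through gp130 paired with Lifr or Osmr. The complexes activate JAK kinases and STAT3, whose target Socs3 acts back on the receptor, and members of the family are known regulators of fibroblasts, cartilage and bone as well as of leukocytes.

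After cell filtering, 6715 FGF8 and 3252 BSA cells remained, with medians of 12251 and 15377 unique molecular identifiers (UMIs, counted transcript molecules) per cell. Only 6 of the 7249 and 3703 deposited barcodes occurred in both libraries. Cells were grouped into 13 types named from marker genes, of which 9 had at least 50 cells in each library. The libraries differed in sex: 24.6% of the sex-called FGF8 cells and 79.3% of the sex-called BSA cells carried Xist without Y-linked transcripts. Values of the members in connective tissue-like cells, except Osm, are therefore also given for female and male cells alone. For other cell types the sexes are given in some cases only, and the remaining values are not split by sex. Levels are UMIs summed over a cell type per 1000000 UMIs (CPM), and differences are log2 ratios of FGF8 over BSA with an exact 95% counting interval. Those intervals cover counting error only and are too narrow where a few cells hold most of the UMIs. With 1 library per group no difference was tested, and treatment, pool of mice, dissection and library cannot be told apart. Erythroid-like cells (614 FGF8 and 83 BSA cells, medians 6996.5 and 18691 UMIs) were taken as the type that should lack most members. A level at or below theirs is read as not told apart from background. This benchmark is rough, because the erythroid-like clusters differed. For Il11ra1 the cluster with fewer UMIs per cell (312 FGF8 and 27 BSA cells) had 27.1 and 92.7 CPM. The other cluster (302 and 56 cells) had 2.02 and 1.81 CPM.

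The 250 bases before the start of the canonical transcript (GRCm39, GENCODE) were read from the genome for all 10 members, and 3 of them are printed because they held the AP-1 letters TGANTCA, a sequence recognised by Fos and Jun proteins. These 3 were the ligand genes Il11, Lif and Il6. In the sequences, written 5′ to 3′ with the last base next to the start, capitals mark the AP-1 letters and, in Il6, also GGGATTTTCC, a match to the NF-kB motif.
Il11: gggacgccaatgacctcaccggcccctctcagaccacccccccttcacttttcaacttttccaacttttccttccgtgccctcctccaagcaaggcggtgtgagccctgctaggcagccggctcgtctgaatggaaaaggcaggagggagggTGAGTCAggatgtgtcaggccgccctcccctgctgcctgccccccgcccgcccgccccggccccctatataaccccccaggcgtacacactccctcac
Lif: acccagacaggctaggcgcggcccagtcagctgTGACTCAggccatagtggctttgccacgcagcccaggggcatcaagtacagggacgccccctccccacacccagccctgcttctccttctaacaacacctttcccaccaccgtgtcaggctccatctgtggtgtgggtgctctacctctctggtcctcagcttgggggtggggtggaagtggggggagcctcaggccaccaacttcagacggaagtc
Il6: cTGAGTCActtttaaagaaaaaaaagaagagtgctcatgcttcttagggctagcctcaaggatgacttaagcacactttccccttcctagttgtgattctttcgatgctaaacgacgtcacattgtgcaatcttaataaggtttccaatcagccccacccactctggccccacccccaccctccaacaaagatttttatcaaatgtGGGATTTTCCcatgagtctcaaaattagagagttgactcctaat
The Il11 window is chr7:4781141-4781390 on the minus strand, the Lif window chr11:4207307-4207556 on the plus strand and the Il6 window chr5:30217862-30218111 on the plus strand. The AP-1 letters lay 98 to 92 bases before the start in Il11, 217 to 211 bases before it in Lif and 249 to 243 bases before it in Il6, where the NF-kB match lay 44 to 35 bases before the start. Searched on both strands, the AP-1 letters occurred in 6.17% of 21770 windows of protein-coding genes, and the NF-kB motif in 1.47%. The other 3 motifs searched on both strands had no match in the 10 windows: TGACGTCA (CRE, in 1.69% of all windows), TTCNNNGAA (STAT, in 7.70%) and TATAAA (in 11.9%). A match describes letters only, and the absence of a match says only that these letters are not in the window.

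Il11, which encodes a cytokine of stromal and skeletal cells, was higher in the FGF8 library in connective tissue-like cells, a class named from marker genes of fibroblasts, tendon, joint lining and bone-forming cells. Its gene lies on chromosome 7 (chr7:4775372-4785858, minus strand, 5 exons). In 3260 FGF8 connective tissue-like cells 2948 Il11 UMIs were counted, and in 1649 BSA cells 127, which gave 42.4 and 3.60 CPM. The log2 ratio was 3.56 (95% interval 3.30 to 3.82), or 11.8-fold. Female cells alone gave 3.47 (3.17 to 3.77) and male cells alone 4.38 (3.60 to 5.29), the latter from 13 UMIs in 291 male BSA cells. The difference was thus present within each sex. At least 1 Il11 UMI was found in 12.6% of FGF8 and 4.00% of BSA connective tissue-like cells, at median depths of 18842 and 20538 UMIs, against 1.14% and 1.20% of erythroid-like cells. After each cell was thinned to 2000 UMIs the connective tissue-like shares were 2.45% and 0.624%, and the erythroid-like shares 0.417% and 1.30%. The thinned BSA erythroid-like share is 1 cell of 77, so it sets no firm background at this depth. The study itself listed Il11 among its genes raised by FGF8 in these libraries, so its direction here is not independent evidence.

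The Il11 UMIs were concentrated in few cells. In the FGF8 library 410 connective tissue-like cells held all 2948 UMIs, the top 10% of cells held 97.2% of them, and the highest cell held 299. In the BSA library 66 cells held the 127 UMIs, with 43 in the highest cell.

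Chondrocyte-like cells had the highest Il11 level of any type in both libraries, with 172 CPM (553 UMIs in 143 cells) in the FGF8 and 94.1 CPM (154 UMIs in 66 cells) in the BSA library. The log2 ratio was 0.87 (0.61 to 1.14). In the BSA library the value rested on 14 cells, of which the top 7 held 94.8% of the UMIs. Female chondrocyte-like cells gave 278 and 129 CPM and male cells 116 and 3.05 CPM, the latter from 1 UMI. Connective tissue-like cells ranked next in both libraries, in the BSA library without a separation from pericyte or smooth muscle-like cells (2.06 CPM) by the counting intervals. Macrophage-like cells had 12 Il11 UMIs in the FGF8 and 0 in the BSA library, a level at or below that of erythroid-like cells.

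**Figure D1:**
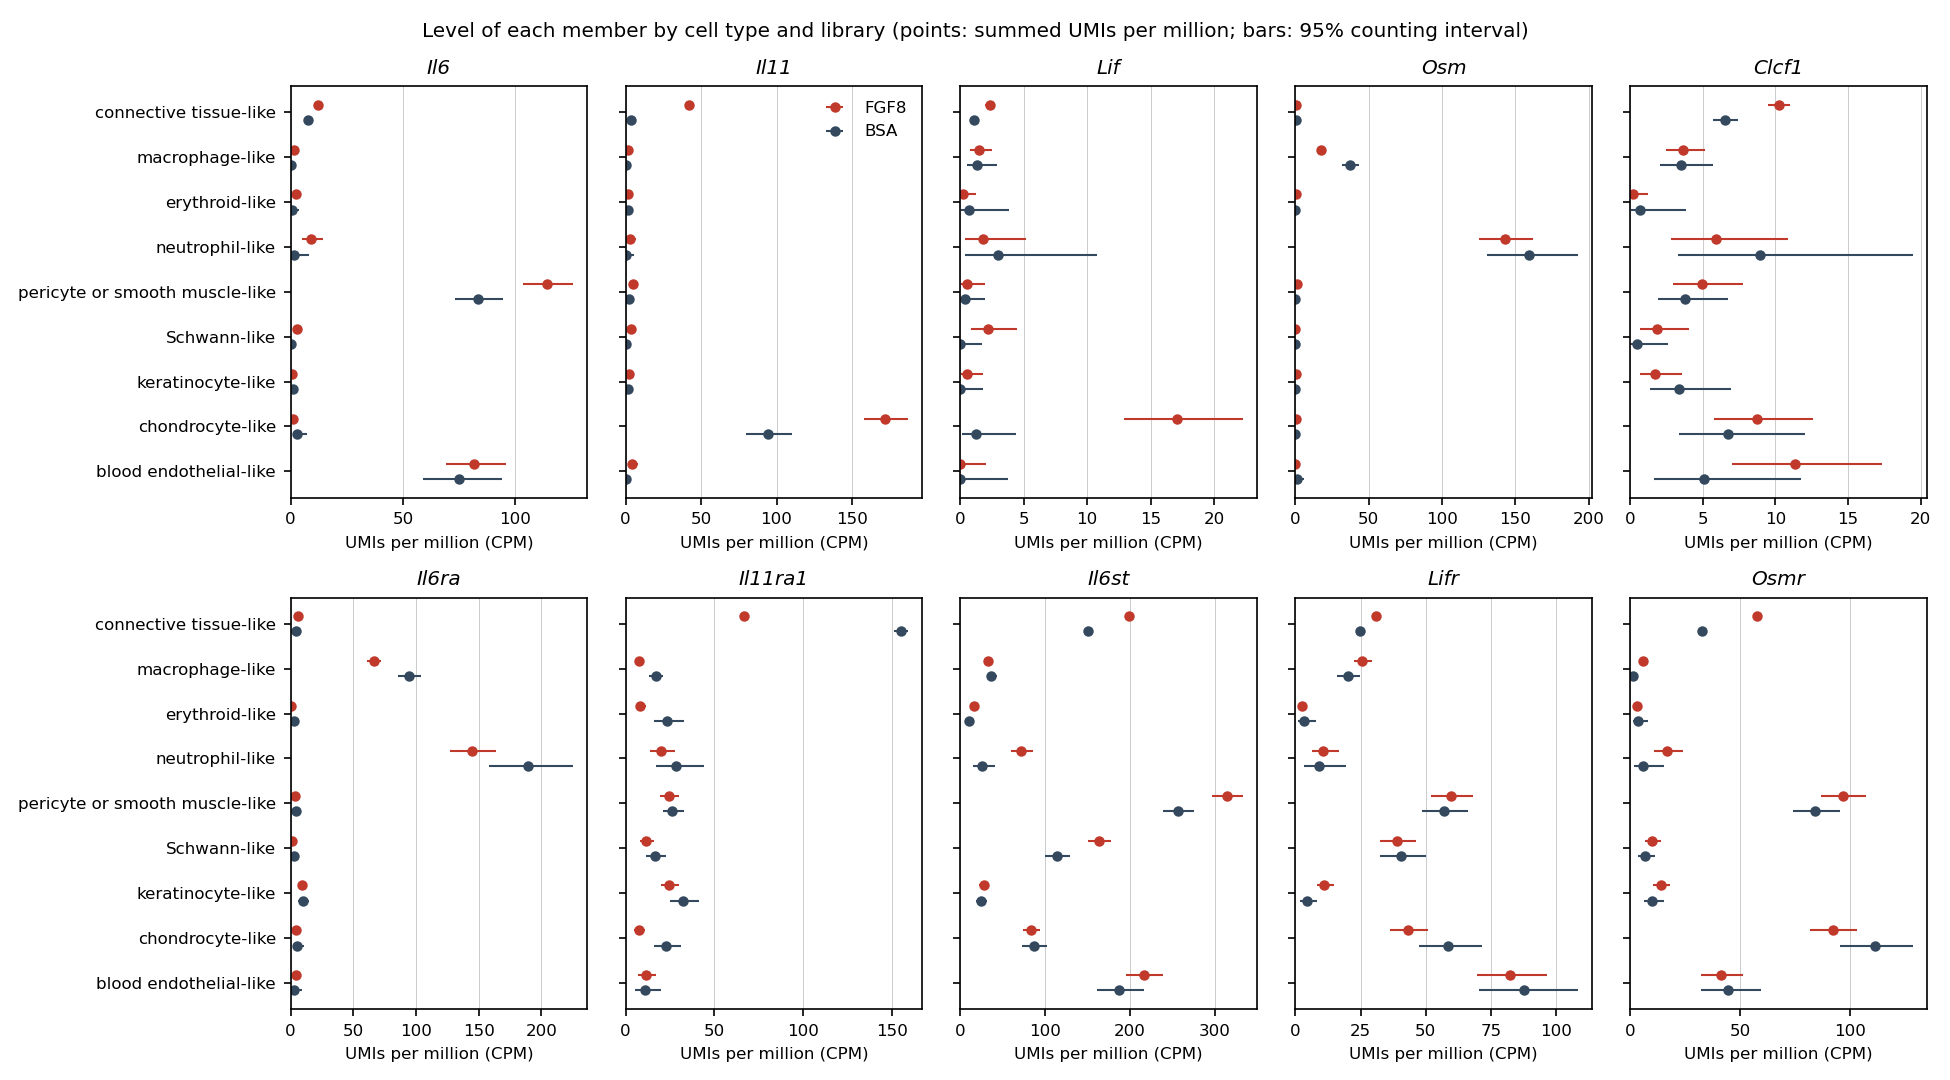
Level of each of the 10 members in the 9 cell types with at least 50 cells per library, in CPM, with FGF8 and BSA libraries side by side as points and bars for the exact 95% Poisson interval of the UMI sum. Il11 was highest in chondrocyte-like cells (172 and 94.1 CPM), Osm and Il6ra in neutrophil-like cells, and Il11ra1 in connective tissue-like cells (66.5 and 155 CPM).

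Il6, the family's founding cytokine and a driver of the acute phase response, had its highest levels among the 9 types with at least 50 cells per library in the cells of vessel walls. Pericyte or smooth muscle-like cells had 114 CPM in the FGF8 (418 UMIs) and 83.4 CPM in the BSA library (243 UMIs), a log2 ratio of 0.45 (0.22 to 0.69). This difference was not shared by the sexes: it was -0.06 (-0.46 to 0.34) in female and 1.93 (1.33 to 2.59) in male cells. Blood endothelial-like cells followed with 81.7 and 74.8 CPM, a log2 ratio of 0.13 (-0.28 to 0.55). In the BSA library these neighbours in the order had overlapping intervals, and in the FGF8 library they did not. Mast cell-like cells, a smaller type with 62 and 41 cells, were above both with 229 and 124 CPM (76 and 43 UMIs).

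In connective tissue-like cells Il6 (chr5:30218112-30224979, plus strand, 5 exons) had 844 and 272 UMIs, or 12.1 and 7.71 CPM. The log2 ratio was 0.65 (0.45 to 0.85), with 1.54 in female and 0.44 in male cells. The FGF8 UMIs came from 302 cells and the BSA UMIs from 88, of which the highest held 41. Shares of cells with Il6 were 9.26% and 5.34%, against 1.47% and 1.20% of erythroid-like cells.

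Lif, a cytokine known for its actions on bone cells and on stem cells, was sparse. Connective tissue-like cells had 160 UMIs (2.30 CPM) in the FGF8 and 38 (1.08 CPM) in the BSA library, a log2 ratio of 1.09 (0.57 to 1.64), with 0.94 in female and 1.24 in male cells. The gene lies at chr11:4207557-4222514 (plus strand, 4 exons), close to Osm at chr11:4186420-4191026 (plus strand, 3 exons). Chondrocyte-like cells had 55 UMIs (17.1 CPM) and 2 UMIs (1.22 CPM), a log2 ratio of 3.81 (1.89 to 6.89). All 55 were found in 13 cells, and the sexes differed: female cells had 47.1 and 0 CPM, male cells 1.60 and 6.10 CPM. In the BSA library no cell type with at least 50 cells per library was separated from the other such types by its Lif interval. Mast cell-like cells, a smaller type with 62 FGF8 and 41 BSA cells, had 3.01 and 14.4 CPM of Lif (1 and 5 UMIs). Lymphocyte-like cells, also a smaller type, had 7.01 and 5.15 CPM (4 and 2 UMIs).

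Clcf1, which encodes a ligand that acts through Cntfr, had 712 UMIs (10.2 CPM) and 229 UMIs (6.49 CPM) in connective tissue-like cells. The log2 ratio was 0.66 (0.44 to 0.88), with 0.59 in female and 1.16 in male cells. Connective tissue-like cells held 83.9% of all Clcf1 UMIs of the FGF8 library and 76.1% of those of the BSA library. Over all genes they held 69605051 of 103223720 and 35258400 of 54376379 UMIs. The Clcf1 level there was close to that in blood endothelial-like (11.4 and 5.05 CPM) and chondrocyte-like cells (8.71 and 6.72 CPM), and these intervals overlapped. Lymphocyte-like cells, a smaller type, had 17.5 and 15.4 CPM (10 and 6 UMIs), and BSA neutrophil-like cells 8.94 CPM (6 UMIs). Clcf1 lies at chr19:4264292-4273546 (plus strand, 3 exons) and overlaps Gm45928 on the same strand, although the shared bases lie outside the last 500 bases of its transcript, where a 3′ library reads.

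Osm, the gene of oncostatin M, was a leukocyte transcript in both libraries. Neutrophil-like cells had 242 UMIs (143 CPM) in the FGF8 and 107 UMIs (159 CPM) in the BSA library, a log2 ratio of -0.16 (-0.49 to 0.18) whose interval includes 0. Macrophage-like cells had 145 UMIs (17.5 CPM) and 170 UMIs (37.5 CPM), and were lower in the FGF8 library by a log2 ratio of -1.10 (-1.43 to -0.77). The sexes gave different sizes, with -0.36 (-0.99 to 0.23) in female and -2.37 (-2.88 to -1.84) in male cells, the latter from 48 male BSA cells. A macrophage-like cluster led by Ms4a4c held 134 and 159 of these UMIs (27.5 and 62.9 CPM). The macrophage-like cluster led by Pf4 and C1qa had 11 and 11 UMIs, and its ratio interval included 0 (-2.12 to 0.57). Neutrophil markers summed to 148 CPM in FGF8 and 306 CPM in BSA macrophage-like cells. Monocyte or dendritic cell markers summed to 1772 and 2961 CPM there, although the cells of that name had only 2.22 and 2.99 CPM of Osm. The part of such cells in the macrophage-like ratio was not tested. Mast cell-like cells, a smaller type, had 18.1 and 66.2 CPM of Osm (6 and 23 UMIs). Neutrophil-like cells held 56.4% of the Osm UMIs of the FGF8 library and 34.4% of those of the BSA library, and macrophage-like cells 33.8% and 54.7%. In connective tissue-like cells only 13 and 4 Osm UMIs were counted, or 0.187 and 0.113 CPM, against 0.431 and 0 CPM in erythroid-like cells.

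Il11ra1, the chain that binds IL-11, showed the opposite direction to its ligand. Connective tissue-like cells had 4629 UMIs (66.5 CPM) in the FGF8 and 5465 UMIs (155 CPM) in the BSA library, a log2 ratio of -1.22 (-1.28 to -1.16). Shares of cells with the transcript were 48.6% and 72.1%, or 12.1% and 24.8% after thinning to 2000 UMIs, against thinned shares of 1.04% and 2.60% in erythroid-like cells. Connective tissue-like cells held 90.7% and 92.1% of all Il11ra1 UMIs. Over the other types with at least 50 cells per library the levels ranged from 7.47 to 24.6 CPM in the FGF8 and from 11.1 to 32.6 CPM in the BSA library, with 8.40 and 23.4 CPM in erythroid-like cells. Among the smaller types, lymphatic endothelial-like cells (18 and 66 cells) had 59.4 and 58.9 CPM, from 18 and 47 UMIs, above the erythroid-like level in both libraries. The other small types had 0 to 14.0 CPM in the FGF8 and 4.48 to 25.9 CPM in the BSA library, and the cells of unnamed clusters 35.9 and 99.7 CPM (32 and 50 UMIs). The study listed Il11ra1 among its genes lowered by FGF8 in these libraries, so this direction too is not independent evidence.

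The sex of the cells moved with the Il11ra1 level. In connective tissue-like cells of the FGF8 library female cells had 19.7 CPM and male cells 82.1 CPM, a log2 ratio of male over female of 2.06 (1.88 to 2.24). In the BSA library female cells had 132 CPM and male cells 239 CPM, a log2 ratio of 0.85 (0.77 to 0.94). The FGF8 library was lower within both sexes, with -2.75 (-2.92 to -2.57) in female and -1.54 (-1.63 to -1.46) in male cells. Both are larger in size than the pooled value of -1.22, since the FGF8 library held mostly male and the BSA library mostly female cells. Females and males are different mice, so sex and animal cannot be told apart here.

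Il11ra1 lies at chr4:41699989-41769485 (plus strand, canonical transcript with 13 exons) and has a near copy, Il11ra2, which shares 80 of the 470 31-base words (17.0%) in the last 500 bases of the Il11ra1 transcript. Reads from these words could have been assigned to neither gene. Il11ra2 itself had 4 UMIs in each library. Gm13305, counted as another possible copy, had 39 and 21, and the words that it shares with Il11ra1 were not measured. The antisense gene Ccl27a overlaps 13 of the last 500 bases.

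Il6ra, the chain that binds IL-6, had its highest levels in leukocytes. Neutrophil-like cells had 145 CPM (245 UMIs) in the FGF8 and 189 CPM (127 UMIs) in the BSA library, a log2 ratio of -0.39 (-0.70 to -0.07). Macrophage-like cells had 66.1 CPM (549 UMIs) and 94.6 CPM (429 UMIs), a log2 ratio of -0.52 (-0.70 to -0.33), with -0.53 in female and -0.60 in male cells. Monocyte or dendritic cell-like cells, with 64 and 43 cells, had 82.2 and 82.1 CPM. Connective tissue-like cells had 388 UMIs (5.57 CPM) and 145 UMIs (4.11 CPM), which gave a log2 ratio of 0.44 (0.16 to 0.72) in the other direction. Female connective tissue-like cells had 6.49 and 3.84 CPM, and male ones 5.05 and 4.11 CPM. Il6ra lies at chr3:89771366-89820719 (minus strand, 10 exons).

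Osmr, the chain through which mouse oncostatin M acts with gp130, was found in 49.4% of FGF8 and 36.4% of BSA connective tissue-like cells, against 2.12% and 4.82% of erythroid-like cells. Connective tissue-like cells had 4019 UMIs (57.7 CPM) and 1153 UMIs (32.7 CPM), a log2 ratio of 0.82 (0.73 to 0.92), with 0.82 in female and 0.68 in male cells. Levels in pericyte or smooth muscle-like cells were 96.7 and 84.0 CPM, and in chondrocyte-like cells 92.1 and 111 CPM. Both intervals of the ratio there included 0, at 0.20 (-0.04 to 0.44) and -0.27 (-0.54 to 0.00). In macrophage-like cells Osmr had 50 UMIs in the FGF8 and 6 in the BSA library, 6.02 and 1.32 CPM beside 3.02 and 3.44 CPM in erythroid-like cells. Female macrophage-like cells held 2 and 3 of these UMIs, and male ones 34 and 0. Markers of the types with more Osmr differed in macrophage-like cells. Chondrocyte markers summed to 226 CPM in the FGF8 and 49.8 CPM in the BSA library, and pericyte or smooth muscle markers to 129 and 52.5 CPM. Connective tissue markers were closer, at 2968 and 2670 CPM. Their part in the macrophage-like Osmr ratio was not tested. Osmr lies at chr15:6843053-6904450 (minus strand, 18 exons).

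Lifr, the receptor of LIF and a partner of gp130, was highest in blood endothelial-like cells, with 82.2 CPM in the FGF8 and 87.9 CPM in the BSA library. Connective tissue-like cells had 2144 UMIs (30.8 CPM) and 877 UMIs (24.9 CPM), a log2 ratio of 0.31 (0.19 to 0.42), with 0.32 in female and 0.26 in male cells. Chondrocyte-like cells had 43.3 and 58.7 CPM, with a ratio of -0.44 (-0.83 to -0.05). Female chondrocyte-like cells were lower in the FGF8 library (41.4 and 71.9 CPM), and male ones higher (45.9 and 33.5 CPM, the latter from 11 UMIs in 15 cells). Keratinocyte-like cells had 45 and 9 UMIs (11.2 and 4.31 CPM), a ratio of 1.37 (0.32 to 2.59). These cells were unlike in the FGF8 and BSA libraries, with medians of 12835 and 6306.5 UMIs and mitochondrial shares of 3.46% and 0.81%. The part of this in the ratio was not tested. Lifr lies at chr15:7120095-7226970 (plus strand), on the same chromosome as Osmr.

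Il6st, which encodes gp130, was detected in most stromal cells. Its transcript was found in 81.4% of FGF8 and 79.4% of BSA connective tissue-like cells, or 30.5% and 25.0% after thinning, against thinned shares of 3.33% and 1.30% in erythroid-like cells. Connective tissue-like cells had 13790 UMIs (198 CPM) and 5317 UMIs (151 CPM), a log2 ratio of 0.39 (0.35 to 0.44), with 0.40 in female and 0.22 in male cells. Il6st was highest in pericyte or smooth muscle-like cells in both libraries, with 314 and 256 CPM and a ratio of 0.30 (0.16 to 0.43). Schwann-like cells had 163 and 114 CPM, a ratio of 0.52 (0.30 to 0.75). In neutrophil-like cells it was 71.5 and 25.3 CPM (121 and 17 UMIs), a ratio of 1.50 (0.76 to 2.32). The FGF8 UMIs there came from 64 of 539 cells, of which the top 54 held 91.7% and the highest held 13 UMIs. Chondrocyte-like cells had 83.1 and 86.8 CPM. Il6st lies at chr13:112600604-112646620 (plus strand, 17 exons).

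Of the 10 members, 9 were higher and 1 was lower in the FGF8 library in connective tissue-like cells. Of the 20035 genes with at least 10 UMIs there, 8854 were higher. The 9 include Osm, with only 13 and 4 UMIs. The median log2 ratio of the members was 0.65, beside -0.07 over all these genes. By the rule of size used here, 2 members (Il11 and Lif) were above a log2 ratio of 1, while 6.68% of all genes were. Lif was at 0.94 in female cells, where Il6 (1.54) was above 1 instead. Il11ra1 was the 1 member below -1, while 5.0% of all genes were. In macrophage-like cells 3 members were above 1, beside 8.50% of 14277 genes, and 2 were below -1, beside 4.03%. Of the 3, Il6 (14 UMIs against 0) and Il11 had no BSA UMI and were set against a floor of 3 UMIs over the cell type. The resulting 2.55-fold for Il6 depends on that floor and is not a lower limit by counting error. Both levels were at or below those of erythroid-like cells, while Osmr rested on 6 BSA UMIs. The 2 below were Osm and Il11ra1. Il11ra1 there had 7.83 and 17.0 CPM, below erythroid-like cells as a whole but above their cluster with more UMIs per cell (2.02 and 1.81 CPM). 

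**Figure D2:**
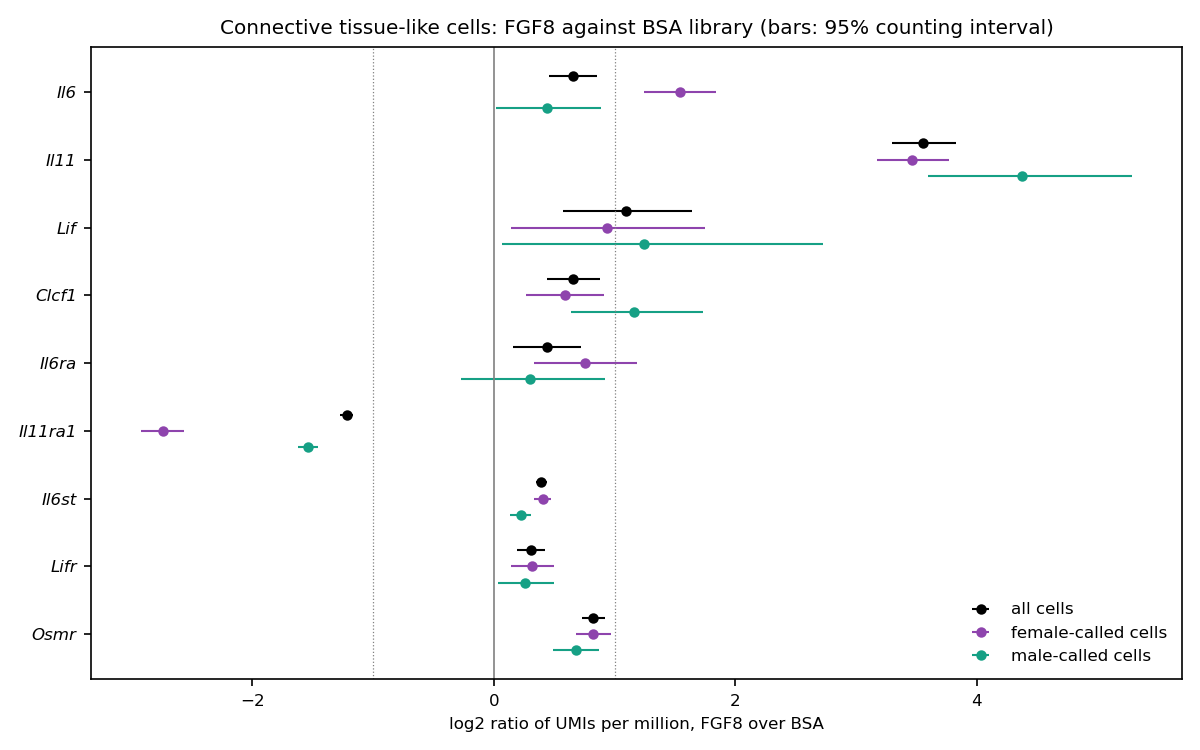
Log2 ratio of FGF8 over BSA in connective tissue-like cells for 9 of the 10 members (Osm, with 17 UMIs in all, is left out), over all cells and over female and male cells alone, with exact 95% counting intervals. Il11 sat at 3.56 over all cells and Il11ra1 at -1.22, and both kept their direction within each sex.

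The connective tissue-like cells were re-clustered into 7 subclusters with the members left out of the genes used. Subcluster 0 was led by Prg4, which encodes the joint lubricant lubricin, together with cell cycle genes (Ube2c, Plk1), subcluster 1 by Chodl, subcluster 2 by Fmod and Comp, subcluster 3 by Lpl and Dlk1, and subcluster 5 by Coch. Subcluster 4 had few UMIs per cell (medians 2657 and 3324) and subcluster 6 had 46 and 22 cells. Their sizes are not compared, because Prg4 differed between the libraries within subcluster 0 (3738 and 967 CPM). Subcluster 0 held most of the FGF8 cells' Il11: its 1052 FGF8 cells had 2776 Il11 UMIs (76.5 CPM) and its 273 BSA cells 87 (9.94 CPM), a log2 ratio of 2.94 (2.64 to 3.27). Subcluster 2 had 10.8 and 1.95 CPM, a ratio of 2.47 (1.68 to 3.36), and subcluster 1, with 1.22 and 0.741 CPM, had a ratio of 0.71 (-0.72 to 2.28). Il11 was thus at 1.22 to 11.2 CPM in the other FGF8 subclusters, and higher than in the BSA library in 6 of 7, with an interval above 0 in 3. In subclusters 4 and 6 the BSA library had no Il11 UMI, and in subcluster 6 the FGF8 library had 1.

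Il11ra1 was lower in the FGF8 library in 7 of 7 subclusters, in all cells, in female cells and in male cells. Male cells were above female cells in 7 of 7 subclusters in the FGF8 and in the BSA library. The ratios over all cells ran from -1.85 to -0.50, and all 7 intervals lay below 0. Its level in subcluster 0, 30.1 and 68.9 CPM, was below that in subcluster 3 (140 and 223 CPM) and subcluster 5 (153 and 215 CPM). Osmr was higher in the FGF8 library in 7 of 7 subclusters, with an interval above 0 in 6. Il6st and Lifr were also higher in 7 of 7, with intervals above 0 in 5 and 3. Il6st and Il6 were highest in subcluster 3, at 450 and 297 CPM for Il6st and 47.7 and 29.9 CPM for Il6.

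**Figure D3:**
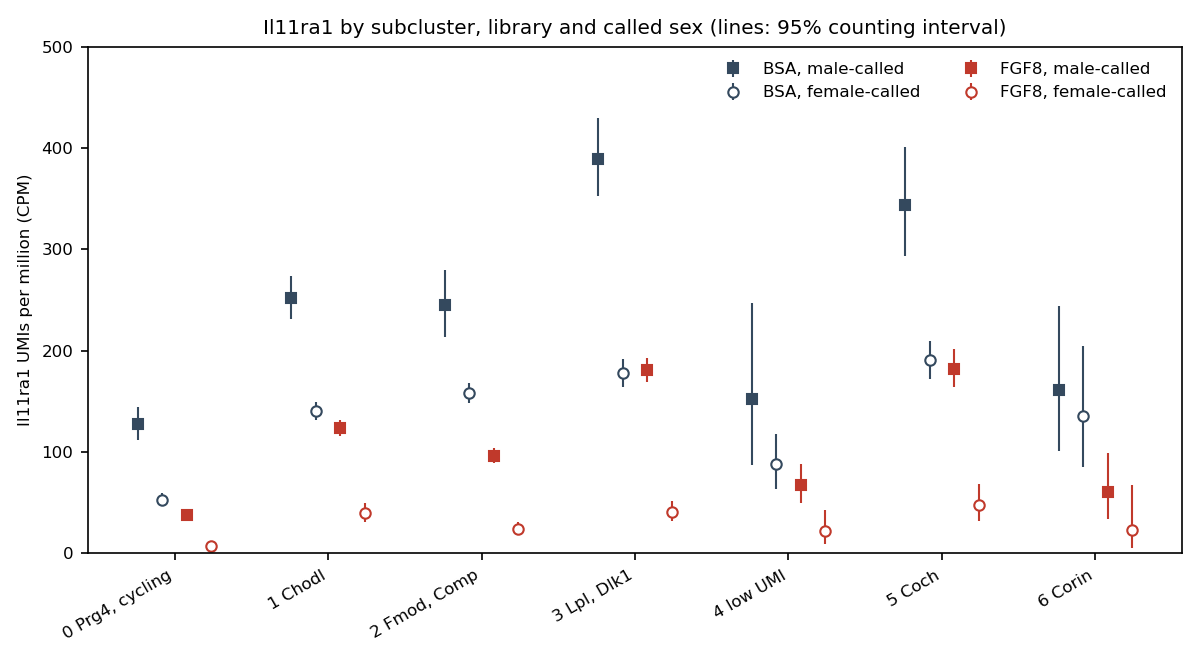
Il11ra1 level in CPM in each of the 7 connective tissue-like subclusters, for female-called (open circles) and male-called cells (filled squares) of the FGF8 and BSA libraries, with exact 95% Poisson intervals. In subcluster 0 the levels were 6.83 (FGF8 female), 37.8 (FGF8 male), 52.8 (BSA female) and 127 CPM (BSA male), and male cells were above female cells in 7 of 7 subclusters in both libraries.

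When both libraries were given the same mix of subclusters, the log2 ratio was 2.80 for Il11, -0.86 for Il11ra1, 0.69 for Osmr and 0.57 for Il6st. Clcf1 then had 0.39. Without subcluster 0 the ratios were 1.77 for Il11, -0.79 for Il11ra1, 0.86 for Osmr and 0.07 for Clcf1. Both settings were chosen after the data had been seen, and both gave each of these members its original direction.

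**Figure D4:**
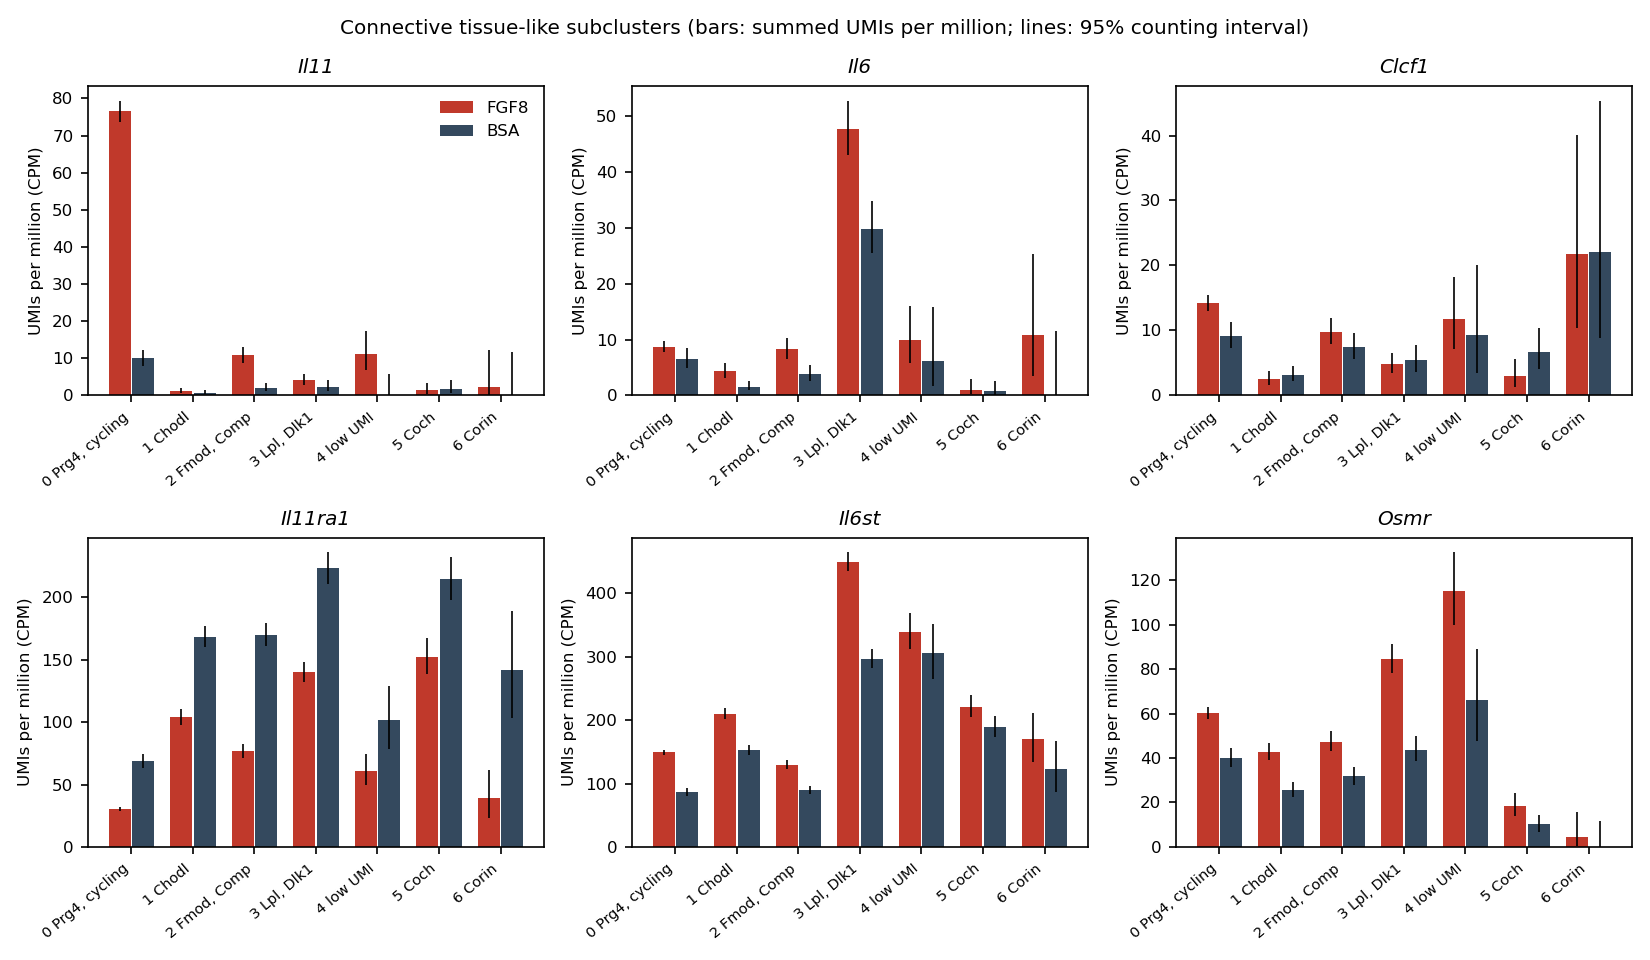
Level in CPM (bars) of Il11, Il6, Clcf1, Il11ra1, Il6st and Osmr in the 7 connective tissue-like subclusters of each library, with exact 95% Poisson intervals as lines. Il11 reached 76.5 CPM in FGF8 subcluster 0 against 9.94 CPM in BSA subcluster 0, while Il11ra1 was lower in the FGF8 library in 7 of 7 subclusters.

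Il11 and its receptor were compared within cells. In the FGF8 library the connective tissue-like cells with Il11 had 28.0 CPM of Il11ra1 and the cells without it 76.5 CPM, and in the BSA library 96.6 and 159 CPM. The cells with Il11 were deeper (medians 35660 and 17284 UMIs in the FGF8 library), and most lay in subcluster 0, where Il11ra1 was low. Within subcluster 0 the levels were 17.3 and 36.6 CPM in the FGF8 library and 21.9 and 76.2 CPM in the BSA library, again lower in cells with Il11. Sex went with both genes there. In BSA subcluster 0 female cells held 79 Il11 UMIs and male cells 3, with Il11ra1 at 52.8 and 127 CPM. In FGF8 subcluster 0 female and male cells had 82.7 and 72.0 CPM of Il11, and 6.83 and 37.8 CPM of Il11ra1. The part of sex in the comparison within cells was not tested. Both chains of the IL-11 receptor, Il11ra1 and Il6st, were detected together in 42.4% of FGF8 and 61.6% of BSA connective tissue-like cells. Osmr and Il6st were detected together in 44.8% and 32.8%, Lifr and Il6st in 31.8% and 28.1%, and Il6ra and Il6st in 8.93% and 6.12%. These shares depend on depth, which was slightly lower in the FGF8 cells.

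Markers of the named types were summed over the connective tissue-like cells. All 30 connective tissue markers were found, with summed levels of 33192 CPM in the FGF8 and 55011 CPM in the BSA library. Neutrophil markers summed to 32.5 CPM in the FGF8 and 9.47 CPM in the BSA library (9 and 8 of 10 found, with Ly6g at 0 in both), and macrophage markers to 67.2 and 63.1 CPM (12 of 12 found). Chondrocyte markers, of the type with the highest Il11 level, summed to 212 and 259 CPM (11 of 11 found), and erythroid markers, the largest sum of another type, to 1338 and 1545 CPM. Their part in the members' ratios was not tested.

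The rest of the pathway was followed with 53 other genes, of which 50 had at least 10 UMIs in connective tissue-like cells. Of these 33 were higher and 17 lower in the FGF8 library (8854 higher and 11181 lower of 20035 genes in all), with a median log2 ratio of 0.33 beside -0.07 over all genes. Of the 50, 8 were above 1, beside 6.68% of all genes, and 1 was below -1, beside 5.0%. Genes known to respond to the pathway made up all 8. The list was chosen with earlier results of these data known, so its counts are a description only. Of its 21 measured responders 21 were higher over all cells, with a median of 0.89. They included Timp1, an inhibitor of matrix metalloproteinases, at 2146 and 478 CPM (2.17), the haemoglobin scavenger Hp at 2.05 and 0.482 CPM (2.09) and the osteoclast factor Tnfsf11, which encodes RANKL, at 36.9 and 8.76 CPM (2.07). Lcn2 (1.89), Ccl2 (1.81), Cebpd (1.17), Serpina3n (1.06) and Lrg1 (2.08), named here after their values were seen, were the other 5. Cebpd, Lcn2, Serpina3n, Timp1, Ccl2 and Tnfsf11 were in the study's own list of raised genes, and these genes answer to other signals as well. Smaller ratios were found for Hif1a (0.41), Mcl1 (0.23) and Bcl2l1 (0.05, -0.09 to 0.20). For Saa3 (5.85 in female and -1.12 in male cells), Lbp (0.64 and -0.40) and Fos (-0.05 and 1.03) the sexes differed in sign.

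The signalling chain itself was mixed. Among kinases, STATs and adaptors 5 of 10 were higher and 5 lower. Stat5a (17.4 and 9.59 CPM) had a ratio of 0.86, Jak2 0.50 and Jak1, the main kinase on gp130, 0.37, while the adaptors Gab2 and Gab1 had -0.42 and -0.37 and Tyk2 -0.34. Of 9 inhibitors 4 were higher and 5 lower. Socs3, which blocks gp130 signalling, had 121 and 83.1 CPM, a ratio of 0.54 (0.48 to 0.60), with 0.33 in female and 0.86 in male cells. The phosphatase genes Ptpn2 (0.38) and Ptpn1 (0.32) were higher, and Pias3 (-0.30), Socs1 (-0.17) and Pias1 (-0.13) lower. Among the other cytokines and receptors 8 of 10 were measured, 2 higher and 6 lower. Il31ra, which pairs with Osmr for IL-31, had 8.13 and 4.62 CPM (0.81), with 1.14 in female and 0.17 (-0.27 to 0.64) in male cells. The cytokine gene Ctf1 had 3.82 and 6.35 CPM (-0.73), with -0.87 in female and -0.36 (-0.89 to 0.21) in male cells. Cntfr, the receptor chain for Clcf1, had 1.84 and 3.80 CPM (-1.05), with -1.66 and -1.05. Adam17, the sheddase of the IL-6 receptor, had 0.19.

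In macrophage-like cells the same list had 47 measured genes, 21 higher and 26 lower, with a median of -0.05 beside 0.05 over all genes. The direction of the responders was not shared there, with 10 higher and 11 lower of 21.

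**Figure D5:**
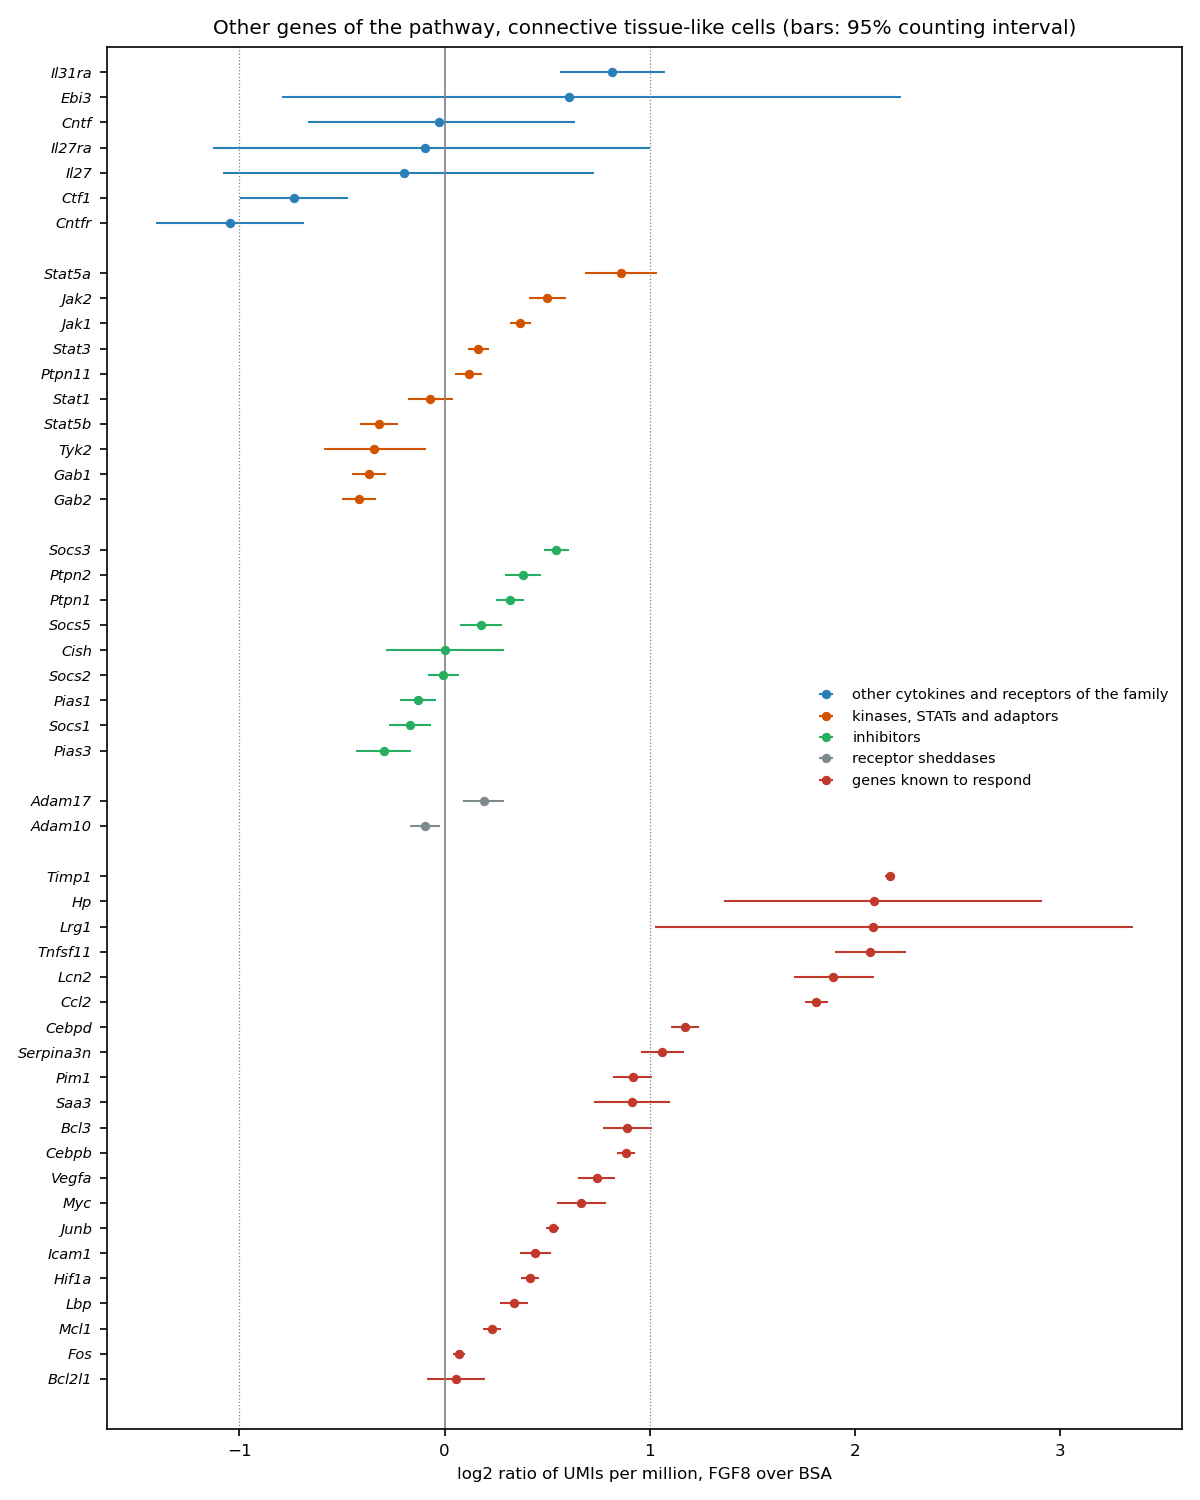
Log2 ratio of FGF8 over BSA in connective tissue-like cells for 49 of the 50 measured genes of the pathway list, grouped by role, with exact 95% counting intervals. The genes known to respond lie above 0 over all cells (21 of 21 higher, median 0.89). The list was chosen with earlier results of these data known. The kinases, STATs and adaptors lie on both sides of 0 (5 higher and 5 lower).

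The pattern of each member over 18 points (9 cell types in 2 libraries) was compared with that of 12499 genes with at least 500 UMIs, by Pearson correlation of log2(CPM + 1). The points share libraries and differ in depth, so the values are a description. Il11 was closest to Prkg2 (0.951), Acan (0.915) and Gfpt2 (0.906), and Lif to Enpp1 (0.797), Runx2 (0.790) and Runx3 (0.789). For Il6 they were Fzd4 (0.928), Meox2 and Pear1, for Osm Gpr141 (0.988), Fpr1 and Gpr132, and for Clcf1 Prxl2c (0.941), Elf4 and Atxn1. Among the receptor chains Il6ra was closest to 1600014C10Rik (0.955), Ebi3 and Itgal, and Il11ra1 to Mfap4 (0.909), Clec3b and Aspn. Il6st was closest to Rhoc (0.949), Sgce and Zfp287, and Osmr to Snai2 (0.964), Il1r1 and Lmcd1. Genes with a pattern like that of Lifr included Plekha3 (0.945) and Msantd2 (0.938). Acan is a chondrocyte marker, and Mfap4 and Clec3b are connective tissue markers of the lists used to name the cells.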

How the data were processed

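Single-cell RNA was measured in 2 libraries, 1 per treatment, each pooled from 20 digits of 5 mice. The deposited matrices hold raw UMI counts per gene and barcode, made by the authors with Cell Ranger 9.0.0 on a GRCm39 reference, with replicates pooled before capture. They still contained cells that fail the filters given in the study's methods, so these were applied here: detected genes above 200 and below 7500, and mitochondrial UMIs below 15%. No caller for free RNA or doublets was run, and the upper gene limit was the sole guard against doublets. Total deposited counts were 124889213 (FGF8) and 67739460 (BSA).

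Cells were merged, normalised with SCTransform (sctransform 0.4.2) and integrated by canonical correlation in Seurat 5.3.0 (R 4.3.3) and clustered at a resolution of 0.8, with members, pathway genes, Xist and Y-linked genes left out of the variable features. The resulting 24 clusters were named from 16 marker lists, and cells of uncertain identity stayed unnamed (410 FGF8 and 239 BSA cells). Connective tissue-like cells were re-clustered at 0.2. For each type in each library the UMIs were added up and expressed as CPM. Ratios have exact conditional 95% intervals, levels exact Poisson intervals and shares of cells Clopper-Pearson intervals, computed in Python 3.11.15 with scipy 1.17.1. A library without UMIs entered at a floor of 3 counts, and ratios over all genes needed at least 10 UMIs. Cells with Xist but no UMI of the Y-linked Ddx3y, Eif2s3y, Kdm5d or Uty were called female, and cells with the reverse were called male. The interval code was tested on simulated data. With 1 library per group no test between treatments was possible, and a log2 ratio beyond 1 is a rule of size.

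The 10 members, the marker and pathway lists and the rule for naming clusters were chosen with earlier results of these data known. All members were named in every type with at least 50 cells per library. From the pathway list the 3 highest and 3 lowest ratios per role were named, restricted to those reaching 100 UMIs whose ratios had equal signs in females and males, and for each member the 3 genes with the most similar pattern. A few genes that these rules select are not reported here.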

Additional observations from a re-analysis of the deposited data

Results flagged for a closer look

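In 4 cases a member's ratio of FGF8 over BSA went one way in one cell type or sex and the other way in another, with both counting intervals clear of 0. None of these differences was tested, since each group is a single library. Il6ra had a log2 ratio of -0.52 (95% interval -0.70 to -0.33) in macrophage-like cells and of -0.39 (-0.70 to -0.07) in neutrophil-like cells, beside 0.44 in connective tissue-like cells. Lifr had -0.44 (-0.83 to -0.05) in chondrocyte-like cells, beside 0.31 in connective tissue-like cells. The chondrocyte-like direction was not shared by the sexes. Female cells had 41.4 CPM in the FGF8 and 71.9 CPM in the BSA library, and male cells 45.9 and 33.5 CPM, the latter from 11 UMIs. Il6st had -0.55 (-0.95 to -0.16) in female blood endothelial-like cells (29 FGF8 and 32 BSA cells) and 1.08 (0.54 to 1.67) in male ones (70 and 13 cells).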

How the results depend on the processing

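Of 18 member ratios in connective tissue-like and macrophage-like cells, 15 had the same sign under every alternative setting listed at the outset that gave a value, the exceptions being Clcf1, Il11ra1 and Lifr in macrophage-like cells. Il11ra1 there was -1.12 over all cells and 0.17 in male cells alone, from 58 UMIs. In connective tissue-like cells Il11 ranged from 2.94 (each cell thinned to 2000 UMIs) to 4.38 (male cells), Il11ra1 from -2.75 (female cells) to -1.0 (each cell weighted equally), Osmr from 0.68 to 0.91, Il6 from 0.44 to 1.54, Lif from 0.84 to 1.24 and Clcf1 from 0.33 to 1.16. The count of members above a log2 ratio of 1 was 2 as reported and 1 (Il11) under the stricter cell filter, with each cell weighted equally and with cells thinned to 2000 UMIs, where Lif was at 0.84, 0.96 and 0.87. In female cells it was 2, with Il6 in place of Lif (0.94). It was 3 in male cells, with Clcf1 at 1.16, and 3 at a clustering resolution of 0.05, with Osm at 1.12. The count below -1 was 1 and became 0 without subcluster 0, an alternative added after seeing the data, which left Il11ra1 at -0.79. The median of the pathway list stayed between 0.25 and 0.40 in connective tissue-like cells and between -0.13 and -0.01 in macrophage-like cells. The cell type with the highest mean level was the same in 28 of 30 cases: Osmr moved to pericyte or smooth muscle-like cells with cells weighted equally, and Clcf1 to chondrocyte-like cells under the stricter filter. The cause of these moves was not tested. A member with 0 UMIs in a library or under 10 UMIs in all gave no value, as for Il6 and Il11 in macrophage-like cells. No paired analysis was possible because each group has 1 library. Depth limits Osm, Lif and Il6ra most in connective tissue-like cells, and small types such as chondrocyte-like cells hold their UMIs in few cells.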
